A study of Mus musculus with 9 samples.

Results

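The genes described here encode the enzymes that cross-link collagen and elastin and the proteins that trim procollagen before it assembles into fibrils, and they were followed in mouse calvarial osteoblasts as the cells differentiated. They were chosen by gene symbol, with earlier results of these data known, and comprise the 5 lysyl oxidases (Lox, Loxl1, Loxl2, Loxl3 and Loxl4), the procollagen C-proteinase Bmp1 and its enhancers Pcolce and Pcolce2. These were 8 of the 40548 genes in the day-0 and day-7 tables, and all 8 passed the filter on low values that left 12712 genes to test. All cells came from the skull vault of C57BL/6 pups at postnatal day 2 to 3 and carried no transgene or deletion according to the labels. Day-0 cells had grown to confluency without ascorbic acid, whereas day-4 and day-7 cells had then spent 4 or 7 days in mineralization medium, where β-glycerol phosphate and ascorbic acid were supplied. For every stage 3 libraries were made from total RNA depleted of ribosomal RNA. The study calls them biological replicates, but the labels do not say which pups or cultures each came from, so the p-values below measure the spread between these samples. Mineralized cells were loosened with collagenase and non-mineralized cells were not, so this step cannot be told apart from the stage.

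Lysyl oxidases are secreted, copper-dependent amine oxidases. They convert lysine and hydroxylysine residues of collagen and elastin into aldehydes, which then condense into the covalent cross-links that give the matrix its strength. LOX and LOXL1 resemble each other in carrying a propeptide, whereas LOXL2, LOXL3 and LOXL4 carry scavenger receptor cysteine-rich domains instead. BMP1 is an astacin-type metalloproteinase that removes the C-propeptide of fibrillar procollagens and also cleaves the propeptide of LOX, and PCOLCE and PCOLCE2 bind procollagen and speed up the cleavage. In bone these steps yield the cross-linked type I collagen network on which mineral is laid down.

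The libraries held 7741204 to 14013219 reads on genes at day 0, 32820610 to 37306090 at day 4 and 10675858 to 15622755 at day 7. Reads of 2 genes outside the pathway took unequal shares of them: Gm42418 took 0.11% to 11.97% (most in day-0 replicate 3) and Plekhh2 took 7.95% in day-7 replicate 3 and at most 0.56% elsewhere. The osteoblast label held against its markers, as 6 of the 7 chosen (Alpl, Ibsp, Bglap, Sp7, Spp1 and Phex) were higher at day 7 by limma. Runx2 did not pass (log2 fold change 0.23, adjusted p = 0.268), although its day-7 libraries were all above those of day 0, and it passed under 5 of 19 alternatives, all of which rescaled the libraries. Endothelial and adipocyte markers were near 0 at every stage, with Emcn, Lep and Cidec at 0 in all 9 libraries. All 6 macrophage markers were higher at day 7 (5 without day-0 replicate 1 or day-7 replicate 1, which lost Adgre1), from a summed level of 7.82 to 12.01 RPKM at day 0 to 17.0 to 22.4 RPKM. With limma on RPKM 5 were higher, as Ptprc was lost (adjusted p = 0.0565), and with a mean of at least 5 CPM only 3 were tested, all 3 higher. Of the 6 osteoclast markers Acp5 and Ctsk rose, and Calcr, Ocstamp and Dcstamp were too low to test. Mmp9 was called lower (log2 fold change -0.86, adjusted p = 0.0136), but under only 10 of 18 alternatives, and not without day-7 replicate 1 or day-0 replicates 2 or 3. The summed level of the 5 chondrocyte markers was 158 to 455 RPKM at day 0 and 43.9 to 124 RPKM at day 7, where Col2a1, Col9a1 and Sox9 were lower and Matn1 was too low to test. Acan was called higher (log2 fold change 1.06), but its stages overlapped, and the call was lost under 8 of 19 alternatives, among them DESeq2 (adjusted p = 0.140) and without day-7 replicate 1 (0.142) or day-0 replicate 3 (0.115). Of the 5 skeletal muscle markers only Acta1 was high enough to test, and it was called higher at day 7, at 1.71 to 6.79 RPKM over the 6 libraries with overlap, but not without day-7 replicate 2 (adjusted p = 0.0780). The part of these other cells in the results below was not tested, and in bulk RNA fewer cells of a type and less RNA per cell cannot be told apart.

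Between day 0 and day 7 the pathway genes did not move as a block. Loxl4, Pcolce2, Loxl2, Loxl3 and Bmp1 were higher at day 7, Loxl1 was lower, and Lox and Pcolce did not pass the threshold. The increase of Loxl4 stood out in size, at 8.04-fold of the mean RPKM, followed by 3.16-fold for Pcolce2, while the other 3 genes that rose did so by 1.397- to 1.56-fold. The test was limma on log2(CPM + 0.5), with p-values adjusted over all genes tested by the Benjamini-Hochberg method and a threshold of 0.05. CPM scale the reads of a gene to the total of its library, and RPKM divide them further by gene length. Log2 fold changes refer to log2(CPM + 0.5), and the added constant shrinks those of weakly expressed genes. Of all genes tested 31.2% were called, 12.6% as higher and 18.6% as lower, so 5 of 8 higher and 1 of 8 lower is to be read against these shares. The median log2 fold change was 0.54 over the 8 genes and -0.11 over all genes tested. With median-of-ratios scaling the latter was -0.01, a shift of 0.10, and the share of called genes that were higher went from 40.3% to 51.8%. In an exact permutation test over 3 against 3 libraries the smallest two-sided p possible is 0.1. On log2(CPM + 0.5), 7 of the 8 genes reached it, the exception being Pcolce at 0.4.

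**Figure D1:**
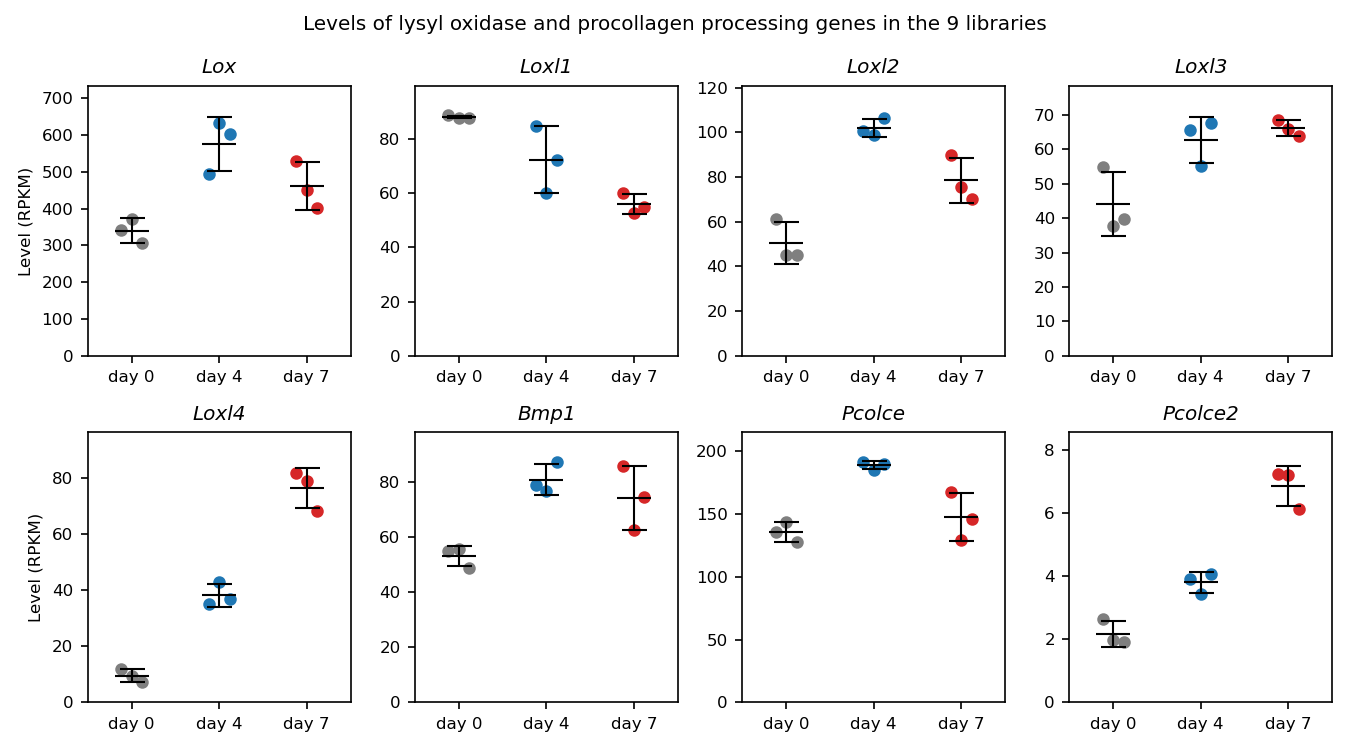
Level of each gene in RPKM (vertical axes, from 0) in the 9 libraries, by stage, with day 0 in grey, day 4 in blue and day 7 in red. Points are libraries and bars are the mean ± SD of 3 libraries. The Loxl4 and Pcolce2 points lie higher at each successive stage and those of Loxl1 lower, and Lox, Loxl2, Bmp1 and Pcolce had their highest means at day 4.

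Lox, the founding member of the family, lies on chr18:52516067-52529867 (reverse strand, GRCm38) and had the highest level of the 8 genes at every stage. It was measured at 342, 373 and 306 RPKM in the 3 day-0 libraries, 493, 632 and 602 RPKM at day 4 and 531, 451 and 402 RPKM at day 7. Every day-7 library thus lay above every day-0 library, and day 4 and day 7 overlapped. The log2 fold change from day 0 to day 7 was 0.43 (SE 0.18, 95% interval 0.08 to 0.79), with an adjusted p of 0.0563 by limma, just short of the threshold. This call depended on the processing. Lox passed under 8 of the 19 alternative settings, among them median-of-ratios scaling (log2 fold change 0.54, adjusted p = 0.00551), and the adjusted p ranged from 6.22e-07 to 0.276 over all of them. The log2 fold change was positive under all 19, from 0.33 to 0.55. Limma with voom quality weights, the approach that the paper's methods describe, was among the settings that passed Lox (log2 fold change 0.55, adjusted p = 0.000918).

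Loxl1, the family member best known for its part in elastic fibres, was the only gene of the 8 to decrease. It lies on chr9:58287738-58313186 (reverse strand). The day-0 libraries had 88.7, 87.9 and 87.8 RPKM, those of day 4 had 84.7, 60.0 and 72.4 RPKM, and those of day 7 had 60.0, 52.9 and 55.1 RPKM. All day-7 libraries were below all day-0 libraries, and the 3 stages did not overlap with each other, although the lowest day-4 value lay only just above the highest day-7 value. Loxl1 fell by 0.66 on the log2 scale (SE 0.15, adjusted p = 0.000574, limma). Other elastic fibre genes moved in both directions. Fbln5 and Fbn1 were lower like Loxl1 (log2 fold changes of -1.35 and -1.89), and Efemp2 did not pass (0.02, adjusted p = 0.934). Eln (elastin) rose: it had 6.27, 8.12 and 4.60 RPKM at day 0 and 24.4, 17.7 and 18.7 RPKM at day 7, a log2 fold change of 1.67 (SE 0.18, adjusted p = 1.62e-10, limma).

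Loxl2 and Loxl3, which belong to the scavenger-receptor branch, rose moderately. Loxl2 (chr14:69609068-69695834, forward strand) had 61.3, 44.9 and 45.1 RPKM at day 0, 101, 98.7 and 106 RPKM at day 4 and 89.6, 75.7 and 70.1 RPKM at day 7. Its 3 stages were separate from each other, with day 4 the highest. The log2 fold change to day 7 was 0.65 (SE 0.16, adjusted p = 0.00140, limma). The level of Loxl2 itself is uncertain, because 45% of the stretches of 50 bases in its exons also occur in other annotated genes, chiefly the pseudogene Gm21451, and only uniquely aligned reads were counted. Gm21451 received 0 to 5 reads in any library. Loxl3 (chr6:83034173-83052562, forward strand) had 54.8, 37.8 and 39.8 RPKM at day 0, 65.5, 55.1 and 67.8 RPKM at day 4 and 68.5, 65.8 and 63.9 RPKM at day 7. The day-0 libraries were all below those of both later stages, and the later stages overlapped. Its log2 fold change to day 7 was 0.60 (SE 0.16, adjusted p = 0.00245, limma). On the opposite strand Htra2 shares 535 bases, 11.6%, of the exonic sequence of Loxl3, and it was measured at 11.3 to 16.2 RPKM. Whether the counting used strand is not given in the sources used here. The paper counted only unambiguous reads, so if strand was not used, reads of that stretch may be missing from both genes.

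Loxl4, the remaining member of the same branch, changed most. It lies on chr19:42593982-42612813 (reverse strand) and is shown here with the 250 bases before its start site, since it had the largest increase. Pcolce2, with the next largest, is shown beside it. Both windows are from RefSeq (GRCm38.p6), at chr19:42612807-42613056 on the reverse strand for Loxl4 and chr9:95637378-95637627 on the forward strand for Pcolce2, printed 5′ to 3′ along the gene with each copy of the GC-box core GGGCGG, or of its reverse complement CCGCCC, in capitals.
Loxl4: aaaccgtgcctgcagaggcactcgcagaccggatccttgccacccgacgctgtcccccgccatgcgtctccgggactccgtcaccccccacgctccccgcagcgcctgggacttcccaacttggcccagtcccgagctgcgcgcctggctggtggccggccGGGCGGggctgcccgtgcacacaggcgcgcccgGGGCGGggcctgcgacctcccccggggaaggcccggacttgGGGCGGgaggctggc
Pcolce2: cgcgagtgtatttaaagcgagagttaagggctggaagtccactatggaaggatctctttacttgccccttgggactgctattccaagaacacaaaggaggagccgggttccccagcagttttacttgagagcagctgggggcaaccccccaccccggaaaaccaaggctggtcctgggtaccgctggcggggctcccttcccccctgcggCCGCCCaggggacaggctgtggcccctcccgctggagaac
The Loxl4 window holds 3 copies of GGGCGG, which begin 89, 56 and 15 bases before the start site, and 76% of its bases are G or C. The Pcolce2 window holds 1 copy, 40 bases before the start, and is 61.2% G or C, against a median of 52.4% over all 32851 windows of this length. At least 1 copy on either strand occurs in 32.7% of all windows. Neither window holds TGTGGT, the core bound by RUNX factors (14% of all windows), or TATAAA, the TATA box (12.4%), on either strand. ACGTG, a form of the hypoxia response element core (16.6%), was also absent from both strands of both windows. Other forms of this core were not searched. All distances count from the RefSeq start sites. The GENCODE coordinates given for Loxl4 and Pcolce2 begin further upstream, so the last bases of both windows lie inside those genes. Pcolce also matched a window and the other 5 genes were not matched. These matches describe the letters in the windows, and no binding was measured.

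The 3 day-0 libraries had 11.9, 9.25 and 7.26 RPKM of Loxl4. At day 4 they had 34.8, 42.7 and 36.9 RPKM, and at day 7 they had 81.8, 78.9 and 68.0 RPKM. No library of a stage overlapped with those of another, and each step was larger than the spread within it. The log2 fold change from day 0 to day 7 was 3.02 (SE 0.16, 95% interval 2.69 to 3.34, adjusted p = 6.75e-21, limma), and 0.92% of all genes tested had one at least as large. Loxl4 rested on 237 to 704 reads per library at day 0 and 3550 to 4706 at day 7, and passed under all 19 alternatives with log2 fold changes of 2.84 to 3.19. In rank by mean RPKM among the 8 genes it was the seventh at day 0 and day 4 and the fourth at day 7. Its values at day 7 overlapped with those of Loxl2 and Bmp1, so that last place is not resolved.

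Because the 5 lysyl oxidases were measured in the same libraries, their shares of the summed RPKM of the family do not depend on how the libraries were scaled. Loxl4 had the smallest share at day 0 and about that of Loxl2 at day 7, the share of Loxl1 was lower by a similar amount, and Lox was the main transcript throughout. The Loxl4 share was 2.13%, 1.67% and 1.496% in the day-0 libraries, 4.47%, 4.80% and 4.17% at day 4 and 9.84%, 10.9% and 10.3% at day 7. On average (± SD, n = 3) the share was 1.77% ± 0.329 in day-0 cells, 4.48% ± 0.314 in day-4 cells and 10.4% ± 0.525 in day-7 cells, without overlap. The Loxl1 share was 16.6% ± 1.27 at day 0, 8.60% ± 2.09 at day 4 and 7.63% ± 0.634 at day 7, with every day-7 library below every day-0 library. For both genes the exact permutation p between day 0 and day 7 was 0.1, the smallest possible with 3 against 3. The shares of Lox (63.9% ± 3.24 and 62.4% ± 1.46 at day 0 and day 7), Loxl2 (9.46% ± 1.44 and 10.6% ± 0.172) and Loxl3 (8.28% ± 1.49 and 9.01% ± 0.729) overlapped between these stages, with exact permutation p of 0.6, 0.4 and 0.6. The summed level of the family was 532 ± 40.6 RPKM at day 0, 851 ± 62.8 RPKM at day 4 and 738 ± 86.5 RPKM at day 7. The uncertain level of Loxl2 enters all of these shares.

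**Figure D2:**
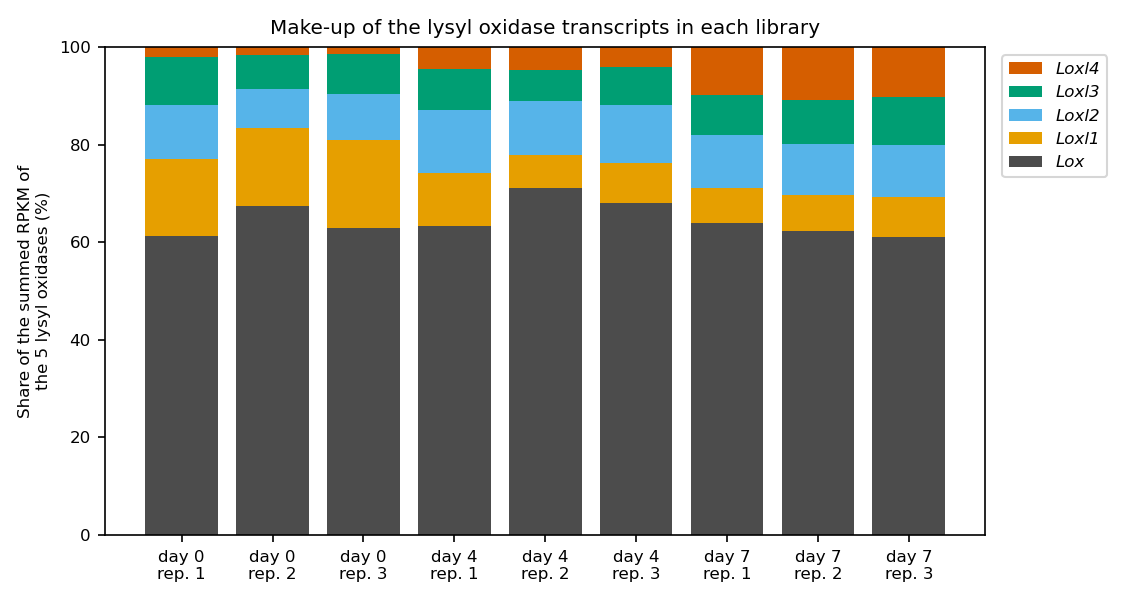
Share of each lysyl oxidase in the summed RPKM of the 5 genes (vertical axis, %), 1 bar per library from day 0 to day 7. The Loxl4 segment at the top widened from 1.77% on average at day 0 to 10.4% at day 7, and the Loxl1 segment above Lox narrowed from 16.6% to 7.63%.

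Bmp1, the procollagen C-proteinase, lies on chr14:70474558-70520234 (reverse strand). It had 54.95, 55.5 and 48.8 RPKM in the day-0 libraries, 78.6, 76.6 and 87.0 RPKM at day 4 and 85.6, 62.4 and 74.4 RPKM at day 7. All libraries of the later stages were above day 0, and day 4 and day 7 overlapped. Bmp1 was higher at day 7 with a log2 fold change of 0.47 (SE 0.16, adjusted p = 0.0167, limma). The call was lost without day-7 replicate 1 (log2 fold change 0.36, adjusted p = 0.156) and without day-7 replicate 3 (0.46, adjusted p = 0.0879). The gene length behind its RPKM was 3757 bases, fewer than the 8870 exonic bases of the annotation used here for coordinates, so its level relative to other genes depends on the gene model.

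Pcolce, the main enhancer of that proteinase, was the second most abundant of the 8 genes at every stage but did not pass the test. It lies on chr5:137605103-137613784 (reverse strand). The libraries had 136, 143 and 127 RPKM at day 0, 191, 185 and 189 RPKM at day 4 and 167, 129 and 146 RPKM at day 7. Day 0 and day 7 overlapped, and every day-4 library was above both. The log2 fold change from day 0 to day 7 was 0.11 (SE 0.16), with a 95% interval of -0.21 to 0.43 and an adjusted p of 0.632 by limma. It passed under 1 of the 19 alternatives, limma with voom quality weights on the whole reads (log2 fold change 0.25, adjusted p = 0.0274). That alternative is the approach that the paper's methods describe.

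Pcolce2, the related enhancer, was the least abundant of the 8 genes at every stage. It lies on chr9:95637601-95698096 (forward strand), and its promoter window is printed with that of Loxl4. It had 2.64, 1.97 and 1.90 RPKM at day 0, 3.92, 3.43 and 4.07 RPKM at day 4 and 7.23, 7.21 and 6.13 RPKM at day 7. As for Loxl4, the stages did not overlap. The log2 fold change to day 7 was 1.62 (SE 0.18, 95% interval 1.26 to 1.99, adjusted p = 2.88e-10, limma), and 3.01% of all genes tested had one at least as large. It rested on 68 to 171 reads per library at day 0 and 356 to 457 at day 7, and passed under all 19 alternatives. Even after this increase the mean of Pcolce2 at day 7 was 6.85 ± 0.631 RPKM, beside 147 ± 19.1 RPKM for Pcolce (SD, n = 3).

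Among the day-0 libraries, replicate 1 had the highest Loxl2, Loxl3, Loxl4 and Pcolce2 levels, and it also had the highest Col2a1, a cartilage collagen, at 420 RPKM beside 140 and 158 RPKM. The part of cartilage cells in these levels was not tested. Without that library the log2 fold changes to day 7 were 0.79 for Loxl2, 0.77 for Loxl3, 3.19 for Loxl4 and 1.77 for Pcolce2, and all 4 passed the test by limma.

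Day 4 was deposited in tables of its own, from deeper libraries, so stage, table and depth cannot be told apart and the day-4 values were compared by direction only. Against day 0, all 3 day-4 libraries were above in 7 of the 8 genes, where 21.1% of all genes were, and Loxl1 was below, where 22.2% of all genes were. Against day 4, the day-7 libraries were all above in Loxl4 and Pcolce2 (13.8% of all genes), all below in Loxl1, Loxl2 and Pcolce (24.6%), and overlapping in Lox, Loxl3 and Bmp1. The means of Lox, Loxl2, Bmp1 and Pcolce were highest at day 4, where 28.7% of all genes had their highest mean. In Loxl2 and Pcolce every day-4 library was above all others (7.77% of all genes). The mean was higher at day 7 than at day 4 in 3 of the 8 genes (40.5% of all genes). These were Loxl3, Loxl4 and Pcolce2, whose means were higher at each successive stage (14.5%), although the Loxl3 means of 62.8 ± 6.73 RPKM at day 4 and 66.1 ± 2.29 RPKM at day 7 were within the spread. Between day 0 and day 7 themselves, every day-7 library was above in 6 of the 8 genes (16.9% of all genes), Lox among them, and below in Loxl1 (25.4%).

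The order of the levels in RPKM also shifted. At day 0 it ran Lox, Pcolce, Loxl1, Bmp1, Loxl2, Loxl3, Loxl4 and Pcolce2, and the values of Bmp1, Loxl2 and Loxl3 overlapped from each to the next. At day 4 Loxl2 came after Pcolce, and Bmp1, Loxl1 and Loxl3 followed with overlapping values. At day 7 Loxl2, Loxl4, Bmp1 and Loxl3 followed Pcolce with overlapping values, so their order is not resolved, and Loxl1 came next. Loxl1 thus went from the third to the seventh place while Loxl4 rose to lie among its neighbours.

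Col1a1, which encodes the α1 chain of type I collagen, the main substrate of these enzymes in bone, rose with a larger log2 fold change than those of Lox, Bmp1 and Pcolce. It had 1751, 2470 and 2252 RPKM at day 0 and 6323, 4879 and 5222 RPKM at day 7, with no overlap. Its log2 fold change was 1.35 (SE 0.24, adjusted p = 1.78e-05, limma), and the call was lost under 1 alternative, when genes with any reads were tested (adjusted p = 0.187). Loxl4 (3.02) and Pcolce2 (1.62) had larger log2 fold changes than Col1a1, whereas Loxl2 (0.65) and Loxl3 (0.60) had smaller ones and Loxl1 fell. Only Lox, Bmp1 and Pcolce were set against Col1a1 as ratios. Ratios to Col1a1 within a library do not depend on its scaling. Lox amounted to 19.5%, 15.1% and 13.6% of Col1a1 RPKM in the day-0 libraries, 11.1%, 12.9% and 12.6% at day 4 and 8.39%, 9.24% and 7.70% at day 7. Every day-7 ratio lay below every day-0 ratio, and the stages were separate. Over the stages in turn Bmp1 amounted to 2.52% ± 0.540, 1.71% ± 0.136 and 1.35% ± 0.0728 of Col1a1 (SD, n = 3). For Pcolce these values were 6.41% ± 1.17, 4.01% ± 0.278 and 2.69% ± 0.0824. On the log2 scale the day-7 ratio to Col1a1 differed from that of day 0 by -0.91 for Lox, -0.88 for Bmp1 and -1.24 for Pcolce. The ratio of the enhancer Pcolce to the proteinase Bmp1 was 2.56 ± 0.0735 at day 0, 2.34 ± 0.145 at day 4 and 1.99 ± 0.0658 at day 7. In each of these 4 ratios the day-7 libraries were below the day-0 libraries, and the exact two-sided permutation p was 0.1, the smallest possible, which does not pass 0.05.

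**Figure D3:**
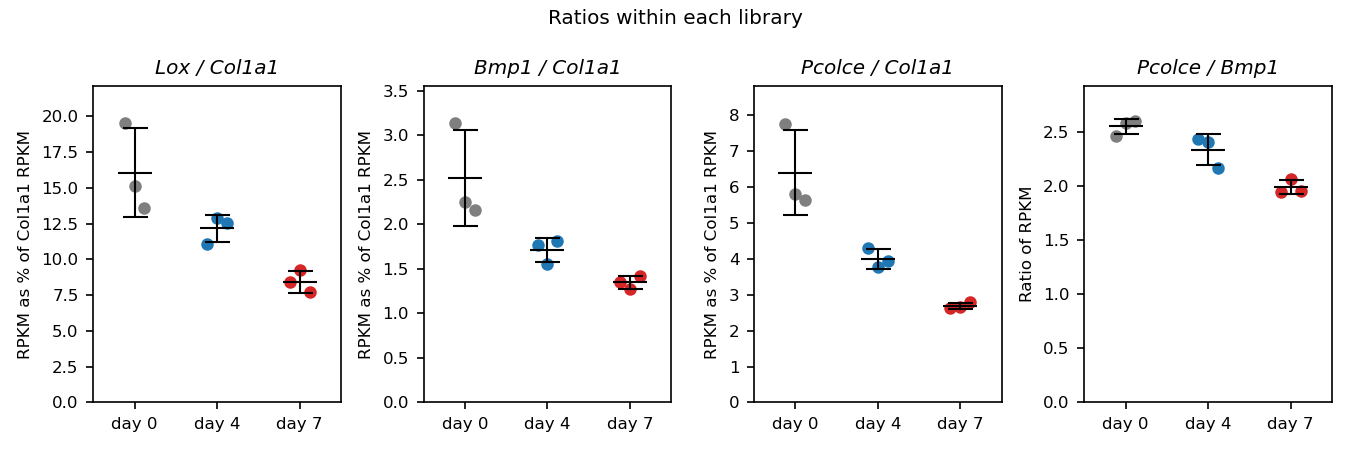
Ratios of RPKM within each library by stage, with Lox, Bmp1 and Pcolce as a percentage of Col1a1 and Pcolce divided by Bmp1 in the last panel (vertical axes from 0). Points are libraries and bars are the mean ± SD of 3 libraries. In all 4 panels the day-7 points lie below the day-0 points.

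The other genes of the pathway were listed by role and counted. Together the lists named 52 genes, of which 43 were tested, 19 were higher and 7 lower at day 7 by limma, with a median log2 fold change of 0.23 beside -0.11 over all genes. This made 44.2% higher and 16.3% lower, beside 12.6% and 18.6% of all genes tested, so the share that was lower was near that of all genes. Of the 11 fibrillar collagen genes 6 were higher and 1 lower, with a median of 0.52. The number higher ranged from 2 to 8 over the alternatives, and it was 2 when genes with any reads were tested, where Col1a1, Col1a2, Col3a1 and Col5a1 lost their calls. Col5a1 passed under 12 of 19 alternatives. Col24a1, a fibrillar collagen of developing bone, rose most, from 0.459, 0.406 and 0.186 RPKM to 26.8, 24.8 and 24.4 RPKM (log2 fold change 6.00, adjusted p = 8.50e-30), and Col2a1 decreased, with a log2 fold change of -2.16 (adjusted p = 2.51e-09). The Col2a1 call was lost with robust variances (adjusted p = 0.0998). Of the 8 genes for lysyl hydroxylation and collagen glycosylation, which prepare the residues that lysyl oxidases act on, 7 were tested and 6 were higher, with a median of 0.53. Without day-7 replicate 1 only 3 were, as Plod2 (adjusted p = 0.252), P3h3 (0.220) and Colgalt1 (0.0724) lost their calls, and over all 19 alternatives P3h3 passed under 11 and Plod2 under 15. When genes with any reads were tested, or on the RPKM table, 4 were higher. Plod1, which hydroxylates lysines of the triple helix, rose most (log2 fold change 1.26, adjusted p = 5.32e-09), and Plod3 was the one that did not pass, at -0.19 (adjusted p = 0.377).

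Proteinases other than Bmp1 mostly did not pass. Of the 7 listed, 4 were tested and only Adamts14, a procollagen N-proteinase, was higher, from 5.82, 5.05 and 4.37 RPKM at day 0 to 9.38, 7.33 and 7.79 RPKM at day 7 (log2 fold change 0.68, adjusted p = 0.00136), and the median was -0.02. Adamts2 did not pass (log2 fold change 0.19, adjusted p = 0.379, limma), and its day-0 and day-7 libraries overlapped. It passed under 2 of 19 alternatives, DESeq2 (adjusted p = 0.0374) and limma with voom quality weights (adjusted p = 0.0499). Tll1, a tolloid proteinase of the same family as Bmp1, had a log2 fold change of -0.22 (adjusted p = 0.383). Tll2, Mep1a and Mep1b were too low to test. Of the 11 other BMP1 substrates 8 were tested, 2 were higher and 1 lower, with a median of 0.01. Dmp1, a mineralization protein of late osteoblasts and osteocytes, rose from 0.155, 0.151 and 0.281 RPKM to 122, 67.4 and 59.1 RPKM (log2 fold change 7.73, adjusted p = 7.06e-33), and Col7a1 was the other that rose. Ogn, a small leucine-rich proteoglycan, was the one called lower (log2 fold change -0.45, adjusted p = 0.0288, limma), although its stages overlapped. It passed under 12 of the 19 alternatives, and not without day-0 replicates 1 or 2 or any day-7 library. Bgn did not pass (log2 fold change -0.41, adjusted p = 0.0539, limma), although its day-7 libraries were all below those of day 0. It passed under 4 of the 19 alternatives.

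Matrix partners of the lysyl oxidases and BMP1 moved in both directions. Of the 10 listed 9 were tested, 3 were higher (Eln, Postn and Sparc) and 4 lower (Fbn1, Thbs1, Fbln5 and Fn1), with a median of 0.02. Fbn1, which encodes the microfibril protein fibrillin-1, fell most, from 60.1, 59.2 and 54.0 RPKM to 14.2, 16.8 and 15.7 RPKM (log2 fold change -1.89, adjusted p = 1.97e-14). Postn, which encodes a protein that binds BMP1, passed under 16 of the 19 alternatives and Fn1, fibronectin, under 14. Postn was lost without day-0 replicate 1, day-7 replicate 1 or day-7 replicate 3, and Fn1 without day-7 replicate 3. In the copper supply list, the metal that lysyl oxidases need, 4 of 5 genes were tested. Atox1, a copper chaperone, was higher (log2 fold change 0.44, adjusted p = 0.0396), but under only 12 of 19 alternatives, and not without day-0 replicates 2 or 3 or day-7 replicates 1 or 3. Atp7a, the pump that loads secreted enzymes with copper, was lower at 5.17, 4.996 and 4.83 RPKM at day 0 against 3.80, 2.96 and 2.93 RPKM at day 7 (log2 fold change -0.63, adjusted p = 0.00229).

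**Figure D4:**
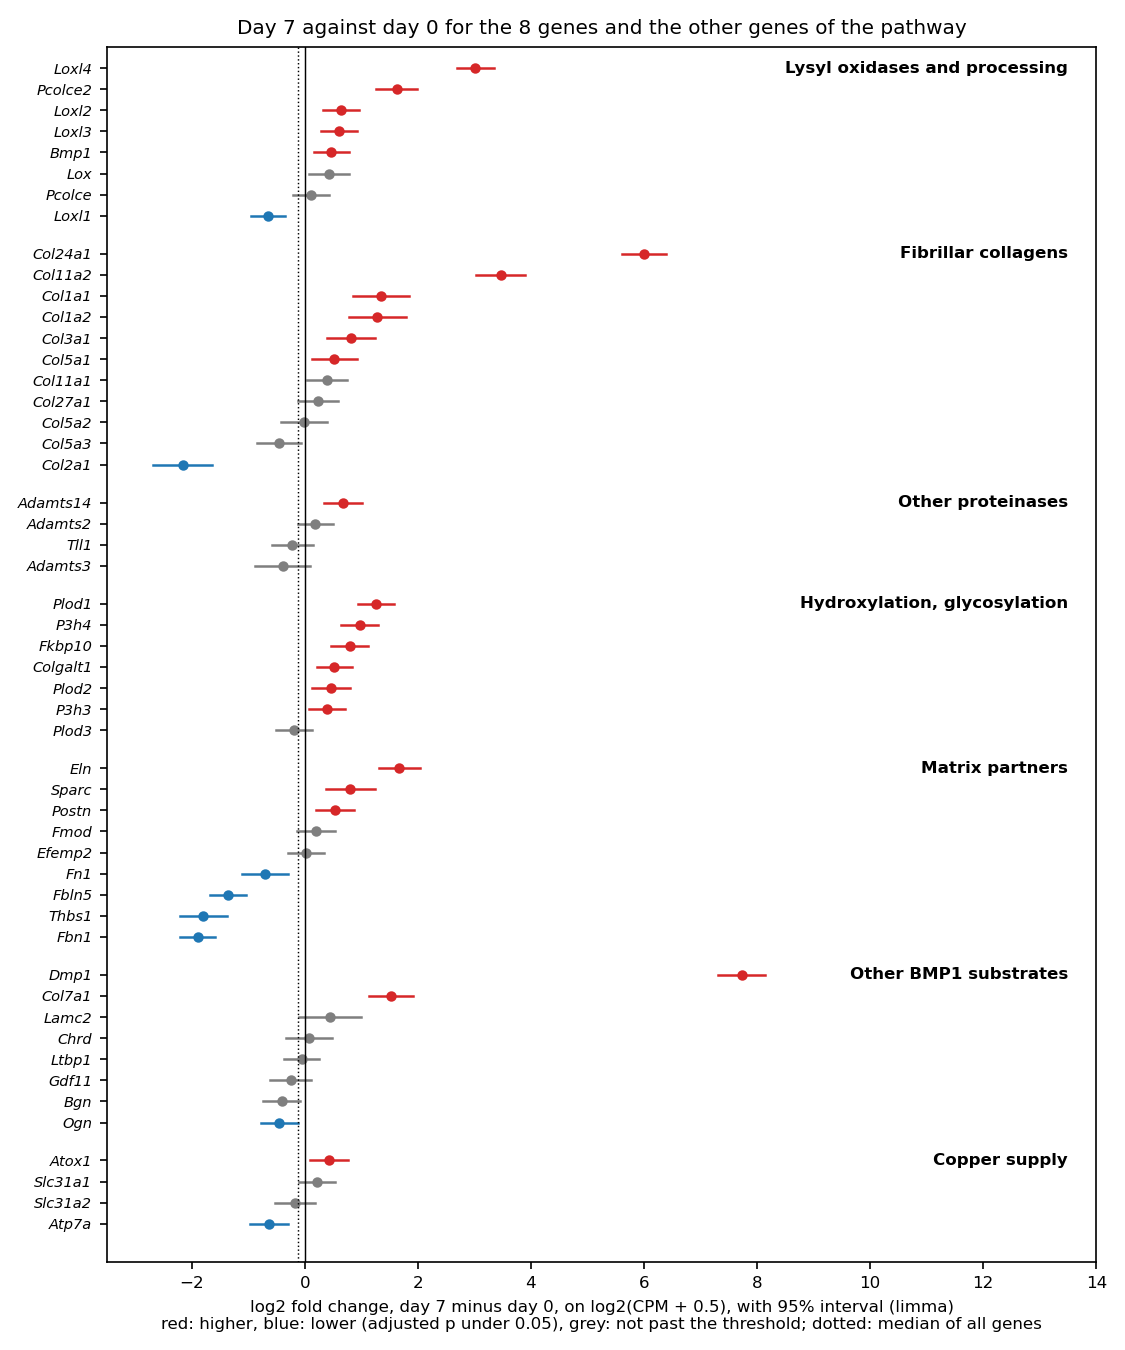
Log2 fold change from day 0 to day 7 with its 95% interval by limma (horizontal axis, log2(CPM + 0.5) scale) for the 8 genes and the 43 other tested genes of the pathway, grouped by role. Red and blue mark genes called higher and lower and grey those that did not pass, and the dotted line is the median of all genes at -0.11. Of the 8 genes, only Loxl4 and Pcolce2 have a log2 fold change above 1.

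The genes whose log2(RPKM + 0.1) over the 9 libraries was most like that of each gene were taken from 11528 genes with a mean of at least 1 RPKM, as a description, since the 9 libraries share 3 stages and 2 sets of tables. For Loxl4 these were Prss50, Gprc5c and Alpl, the alkaline phosphatase of osteoblasts, with Pearson's r of 0.998, 0.997 and 0.996. Alpl averaged 9.995, 75.6 and 209 RPKM at days 0, 4 and 7, beside 9.48, 38.2 and 76.2 RPKM for Loxl4. For Pcolce2 they were Notum (0.994), Prss35 (0.991) and Lifr (0.987), which also had their highest means at day 7. Lox was nearest to Ppme1 (0.986), Radil (0.981) and Stc1 (0.979), and Loxl2 to Atp2b4 (0.989), Gem (0.988) and Tgm2 (0.985), all 6 of which had their highest means at day 4. Loxl1 was nearest to Abhd2, Slc30a1 and Antxr1 (0.982 to 0.987), and Loxl3 to Ripk2, Ctsh and Ifitm1 (0.967 to 0.971). Bmp1 was nearest to Slc2a10, Pofut2 and Trpv2 (0.985 to 0.987), and Pcolce to Slc6a8, Nfe2l2 and C1qtnf3 (0.974 to 0.987). Among the 8 genes themselves the pair most alike was Loxl4 and Pcolce2 (r = 0.966), followed by Loxl2 and Bmp1 (0.908) and Lox and Loxl2 (0.906). The r of Loxl1 was below 0 with every other gene, from -0.067 with Pcolce, which is near 0, to -0.886 with Loxl4.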

How the data were processed

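RNA-seq of 9 libraries was used, 3 each at day 0, day 4 and day 7, grouped by the sample labels. The authors aligned reads with STAR 2.0.4b and counted unique reads per gene with featureCounts (1.45 in the submitters' processing notes) on GRCm38. They deposited CPM and RPKM, for day 0 and day 7 in one pair of tables and for day 4 in another; depth was 7741204 to 37306090 reads on genes, and no value column was left unmatched. CPM gave back whole reads for 99.99% to 100% of values (within 0.01 of a read), so counting error can be judged.

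Day 7 was compared with day 0 by limma 3.58.1 (R 4.3.3; trended variances) on log2(CPM + 0.5) for genes with a mean of at least 1 CPM, with Benjamini-Hochberg adjustment. On the recovered reads, edgeR 4.0.16 called 5468 genes and DESeq2 1.42.0 called 4910, where limma called 3971. Both tools rescaled the libraries, whereas this limma fit used the CPM as deposited, so the counts differ in scaling as well as in tool. Limma called 5450 genes with TMM scaling and 5456 with median-of-ratios scaling. Shares and ratios were compared by exact permutation, two-sided. Day 4 entered no test. Alternatives were other pseudocounts, filters, scalings and tools, robust variances, the RPKM table, a replicate block and each library left out. Code was tested on simulated data with 200 changed genes among 12712, of which limma called 182, along with 19 genes that were not changed. No pair of libraries was found to be a repeat.

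All 8 genes were named, with the strongest rise and fall in each pathway list, Col1a1 and the 3 nearest genes of each. Tested genes named besides these were chosen after their values were seen. The 8 genes and the lists were chosen with earlier results of these data known. Coordinates are from GENCODE M21 (GRCm38) and promoter windows from RefSeq (GRCm38.p6), matched by symbol for 3 of 8 genes.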

Additional observations from a re-analysis of the deposited data

How the results depend on the processing

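Under the 19 alternatives none of the 8 genes changed the sign of its log2 fold change from day 0 to day 7, and the calls of Loxl1, Loxl2, Loxl3, Loxl4 and Pcolce2 were the same throughout. Lox passed with TMM scaling (adjusted p = 0.00454), edgeR (0.00476), DESeq2 (6.22e-07), voom quality weights (0.000918), robust variances (0.0123), median-of-ratios scaling (0.00551), without day-0 replicate 3 (0.0426), and with library totals that left out Gm42418 and Plekhh2 (0.0151), the last chosen after seeing the data. The cause was not tested. Without each library in turn the number of genes called was 2882 to 6330, the highest without day-0 replicate 3, against 3971 with all, and it was 6120 with voom quality weights. The pathway genes called were 13 to 24 higher and 5 to 10 lower over all alternatives, against 19 and 7. Called genes were higher in 51.8% with median-of-ratios scaling, 50.9% with TMM, 52.6% with DESeq2, 51.5% with edgeR, and 51.4% with voom quality weights, against 40.3% as deposited. Without each library in turn this share was 25.8% (without day-0 replicate 3) to 50.6% (without day-0 replicate 2), and 50.1% without day-0 replicate 1.

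With the replicate number as a block 3413 genes were called, and no call among the 8 genes changed. Libraries of the same number did not deviate together (r = -0.0172, -0.181 and -0.444 over genes), so the numbers were not taken as pairs. With 3 libraries a stage no exact permutation test can pass 0.05.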
